A study of Homo sapiens with 16 samples.

Results

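The proteasome subunits and the genes named with them were taken as every probe set with exactly 1 gene symbol on the platform that begins with PSMA, PSMB, PSMC, PSMD, PSME, PSMF or PSMG. This gave 39 genes with 46 probe sets, out of 12626 probe sets and of 8228 genes named alone on one of them, and 7 of these genes had 2 probe sets each. All 46 passed the filter on low values, as did 7824 probe sets in all. The interferon-inducible subunits were kept apart from the rest. Of the 5 such genes, PSMB8, PSMB9, PSMB10 and PSME1 had a probe set of their own, and PSME2 was not analysed here because no probe set carried its symbol alone. The other 42 probe sets stood for 35 genes. PSMA6, PSMA8, PSMB11, PSMC5, PSMD7, PSMD13, PSMG2, PSMG3, PSMG4 and PSME3IP1 were likewise not analysed here. PSMC3IP came in by its name. It encodes a partner of PSMC3 that acts in meiotic recombination and is no part of the proteasome.

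The proteasome degrades proteins marked with ubiquitin. Its 20S core is a barrel of rings of alpha subunits, which gate the entry, and of beta subunits, some of which hold the proteolytic sites. The 19S cap on the core uses a ring of ATPases to unfold substrates, and its non-ATPase subunits recognise and deubiquitinate them. In cells exposed to interferon gamma the catalytic subunits PSMB5, PSMB6 and PSMB7 can be replaced by PSMB8, PSMB9 and PSMB10. The resulting immunoproteasome, helped by the PA28 activator of PSME1 and PSME2, makes peptides for MHC class I.

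The cells were U937, a human monocytic leukaemia line, and all groups, controls included, carried an inducible AML1-ETO gene behind a promoter controlled by tetracycline. The fusion protein joins RUNX1 to RUNX1T1 and arises by translocation in acute myeloid leukaemia. There were 4 groups of uninduced control cells, taken at 0, 24, 48 and 72 h, and 4 groups after induction, taken at 12, 24, 48 and 72 h, each with 2 arrays. Controls at 12 h were not analysed here, so induced cells at 12 h were set against controls at 0 h. The labels name neither the inducing agent nor the number of clones, and do not say whether replicates were separate cultures, so the p-values reflect how far these samples spread, possibly for technical reasons. Each array read RNA from a whole culture, so fewer cells with a transcript and less of it per cell cannot be told apart.

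The values are linear intensities in arbitrary units. Array medians ranged from 220.3 to 337.5, and the replicates of each group had a correlation across probe sets of 0.912 to 0.955. Values under 135.61 were set to that floor before log2 was taken. Each fold below is that of fitted log2 means, thus of geometric means. "At least" for a rise, or "or lower" for a fall, is written where the lower side lay partly at the floor, and bounds the difference of log2 means but not a ratio of arithmetic means, which can be smaller. RUNX1T1 checked the labels with 1 tested probe set (35641_g_at). It read at most 91.4 in all 8 control arrays. In induced cells it read -116.5 and 86.1 at 12 h, 1592.1 and -47.5 at 24 h, 8649.6 and 3974.4 at 48 h, and 10603.3 and 8355.2 at 72 h. Thus both induced arrays at 12 h and replicate 2 at 24 h lay under the floor. The other RUNX1T1 probe sets (35638_at, 35639_at and 35640_at) did not pass the filter on low values and showed no such rise. In induced cells at 72 h they read 155.3 and -52, -23.2 and 100.6, and -14.9 and -59.2. Controls at 72 h gave 351.5 and 131.8, 35.6 and 19.9, and 16.6 and -48.5. Among 13 myeloid marker genes with a probe set, 7 were above the floor on all 16 arrays and 2, CSF1R and ITGAM, were under it on all 16. The summed intensity of these markers ranged from 37663 to 48126 in controls and from 27952 to 48589 in induced cells. That of 6 T and B cell markers reached at most 2100 in controls and 2444.4 in induced cells. Of these, CD3E was above the floor on all 16 arrays, CD79A on 15 and CD3G on none. For 4 erythroid and megakaryocyte markers the ranges were 661.31 to 1504.5 and 818.26 to 1343.5, with ITGA2B above the floor on all 16. For 6 epithelial and fibroblast markers the ranges were 5027.6 to 7558 and 4025.1 to 8478.7. KRT8 and COL1A1, with means of 4209.2 and 1330.3, were above the floor on all 16, and KRT18 was under it on all 16. The part of these shifts in the results was not tested.

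The proteasome probe sets varied less between groups than the array as a whole. The median range of the 8 group means was 0.793 on the log2 scale among the 46 and 1.202 among all tested probe sets. Replicates differed by a median of 0.191 against 0.304. These probe sets were also brighter, with a median mean intensity of 2832.3 against 949.86, and 1.22% of their values lay under the floor against 9.81%. The steadiest were core beta subunits. PSMB1 had a range of 0.353, PSMB6 of 0.46 and PSMB2 of 0.471. The widest range, 4.12, was that of PSMG1, an assembly chaperone, followed by 2.57 for the alpha subunit PSMA7. PSMA7 (33449_at) read 92.7 in replicate 2 of induced cells at 12 h and -337.7 in replicate 2 at 72 h, against 1328.6 to 2811.3 on the other 14 arrays. Its differences passed no test.

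**Figure D1:**
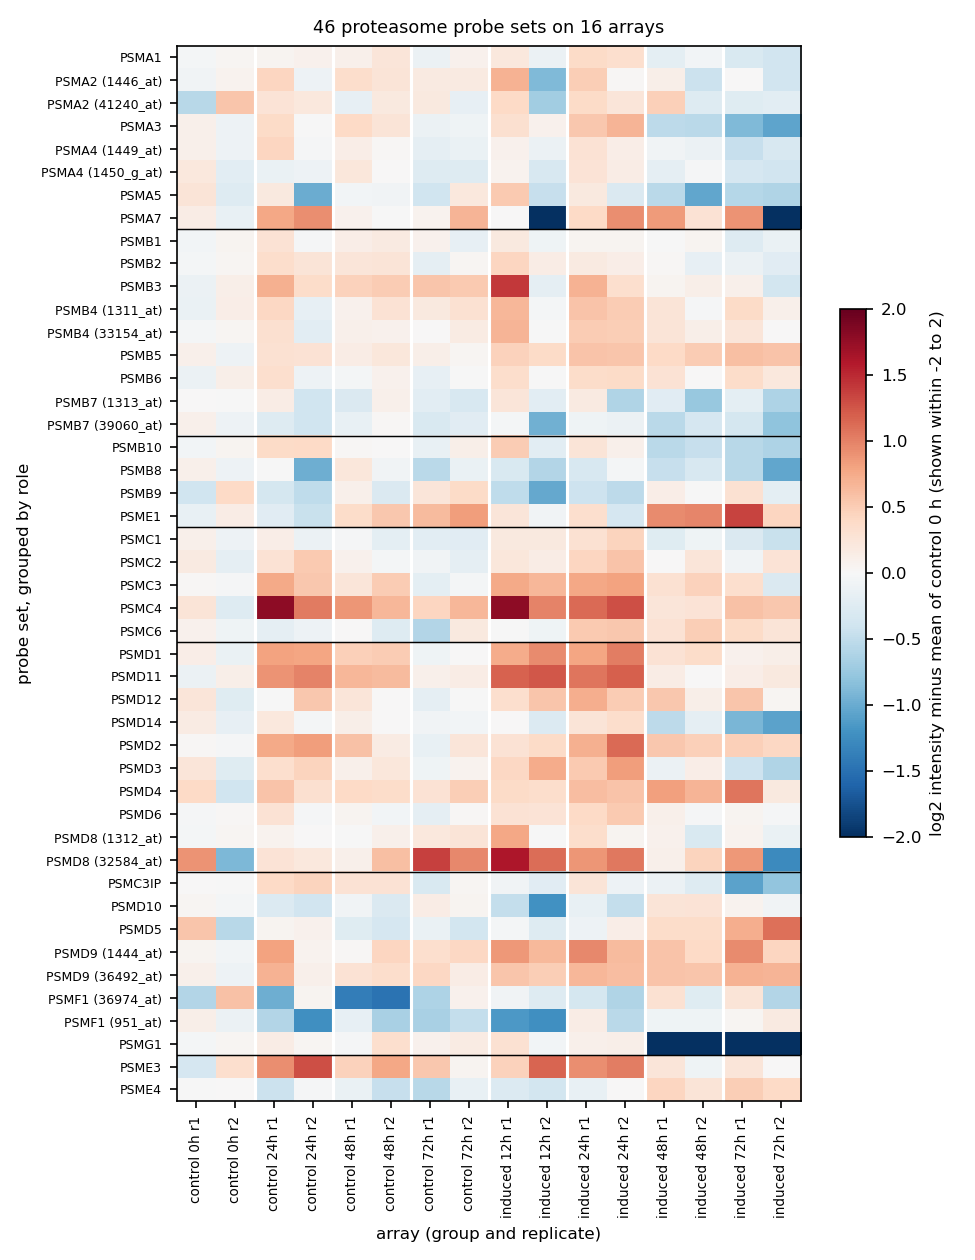
Log2 intensity of the 46 proteasome probe sets (rows, grouped by role) on the 16 arrays (columns, by group and replicate), minus the mean of the 2 control arrays at 0 h. Colours are shown within -2 and 2, red above and blue below the 0 h level. PSMG1 is dark blue on the 4 induced arrays at 48 and 72 h, and PSMA7 on 2 single arrays.

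Averaged over 24, 48 and 72 h, 9 of the 46 probe sets differed between induced and control cells, 4 higher and 5 lower. That is 19.6%, against 31.9% of all tested probe sets (18.5% higher and 13.4% lower). PSMD5, PSMC6, PSME4 and PSMB5 rose, and PSMG1, PSMC3IP, PSMB10, PSMA3 and PSMD14 fell. The median difference was -0.037 on the log2 scale among the 46 and 0.102 over all tested probe sets. When each array was centred on its median, which moved the median over all probe sets to -0.034, the split was 1 higher and 7 lower. The rises of PSMB5 (adjusted p = 0.118), PSMD5 (0.0630) and PSMC6 (0.0530) did not pass limma's test in that setting.

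**Figure D2:**
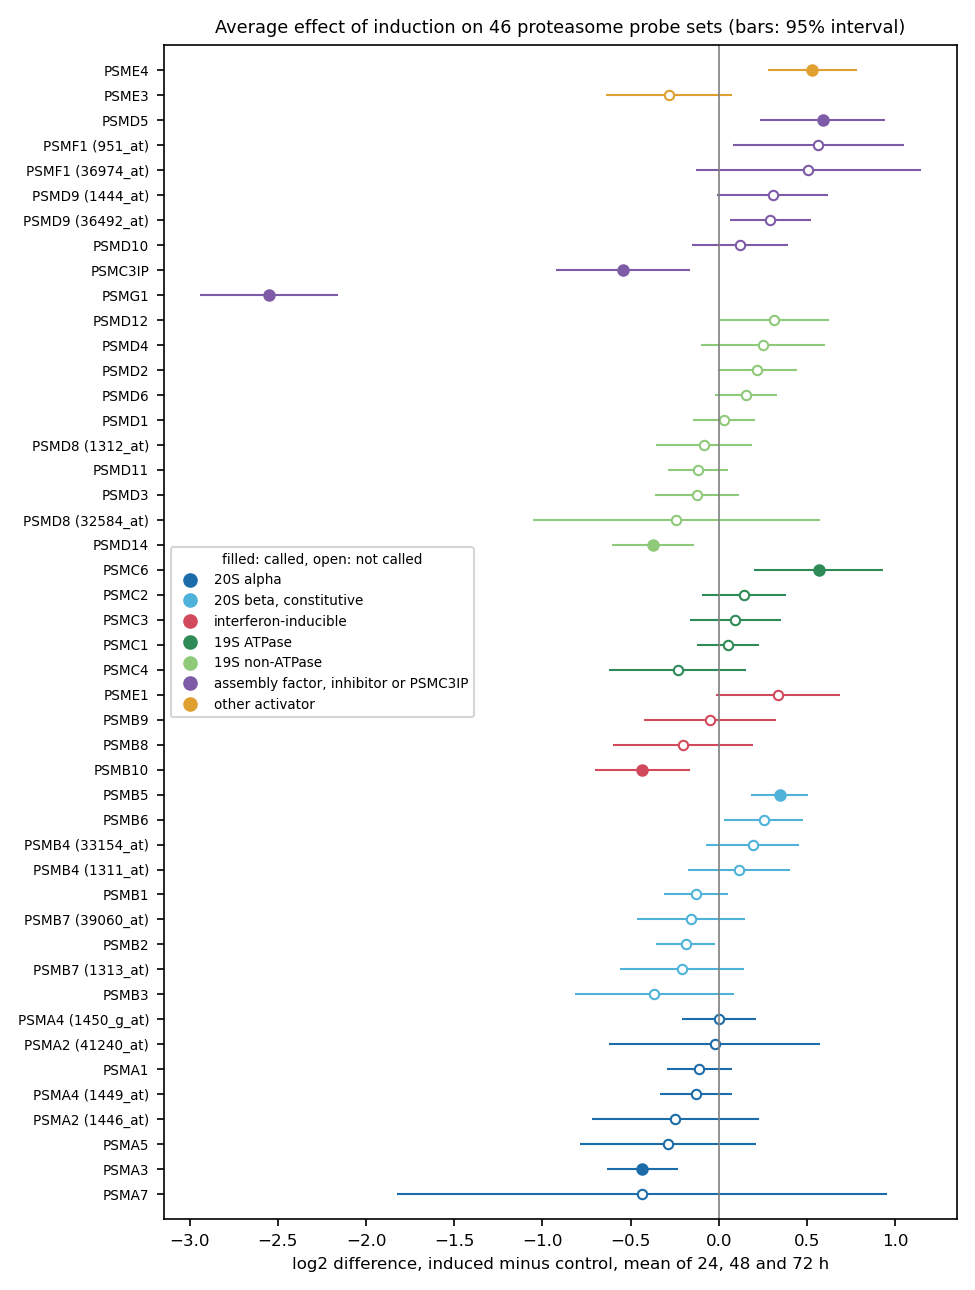
Average difference between induced and control cells over 24, 48 and 72 h (log2, x axis) for each of the 46 proteasome probe sets, coloured by role. Bars are 95% intervals from limma and filled points passed the test. PSMG1 lies at -2.55, with 3 of its induced arrays at the floor, and the other 45 between -0.54 and 0.59.

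By role, 1 of 8 probe sets for alpha subunits was called, lower, and 1 of 9 for constitutive beta subunits, higher. Among the 5 ATPases 1 was higher, and among 10 probe sets for other 19S subunits 1 was lower. Of 8 probe sets for assembly factors, the inhibitor PSMF1 and PSMC3IP, 1 was higher and 2 lower. Of the 2 other activators 1 was higher, and of the 4 interferon-inducible subunits 1 was lower.

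The calls came late. At 24 h none of the 46 was called by limma, as was none of all 7824 probe sets (0.00%). An unadjusted p under 0.05 was found for 4 of the 46 and for 397 of all 7824. At 48 h 1 was higher and 3 were lower, in all 8.70%, against 10.5% higher and 8.68% lower among all tested probe sets. At 72 h 6 were called, 3 higher and 3 lower, or 13.0% of them. Of all tested probe sets 16.1% were higher and 13.9% lower at 72 h. The effects at 24, 48 and 72 h differed from each other for 4 of the 46 in the F test, against 10.9% of all tested probe sets. These were PSMG1, PSMA3, PSMD14 and PSMD11.

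The assembly factor PSMG1 gave the strongest change. PSMG1 (36088_at, chromosome 21, 39174769 to 39183514 in GRCh38.p14) encodes a chaperone that pairs with PSMG2 to build the alpha ring of the 20S core. In controls it read 2047.5 and 2184 at 0 h, 2352 and 2181.9 at 24 h, 2083.7 and 2661.6 at 48 h, and 2239.1 and 2380.9 at 72 h. Induced cells stayed in that range at first, with 2607.4 and 2046.6 at 12 h and 2262.8 and 2282.1 at 24 h. They then read 130.7 and 291.9 at 48 h and 99 and -8.9 at 72 h. The level was thus 291.9 or less on the 4 late induced arrays, 3 of them under the floor, and 2046.6 or more on the other 12. PSMG1 fell, with a log2 difference of -3.57 or lower at 48 h (SE 0.31, adjusted p = 1.15e-05) and of -4.09 or lower at 72 h (SE 0.31, adjusted p = 1.08e-06), both from limma. The arithmetic means of induced and control cells were 211.32 and 2372.7 at 48 h and 45.1 and 2310 at 72 h. At 24 h the difference was 0.0045 on the log2 scale. The 3 effects differed from each other (F test of limma, adjusted p = 0.000186).

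The promoter of PSMG1 is printed because this gene carried the largest change. The sequence is from RefSeq in GRCh38.p14, chr21:39183515-39183701 on the minus strand, with motif matches in capitals. It ends 63 bases short of the start site, since those bases lie within the annotated gene.
PSMG1: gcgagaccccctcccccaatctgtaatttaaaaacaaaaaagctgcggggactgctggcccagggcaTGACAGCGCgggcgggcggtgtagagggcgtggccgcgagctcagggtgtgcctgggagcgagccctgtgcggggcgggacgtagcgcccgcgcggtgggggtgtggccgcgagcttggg
4 motifs were searched on both strands in the 250 bases before each annotated start site, for the members and for all 35116 windows of the RefSeq table. They were the antioxidant response element TGACNNNGC, the interferon-stimulated response element, the gamma-activated site TTCNNNGAA and the RUNX motif TGTGGT. The capitals in PSMG1 match the first of these. The match begins at base 68 of the printed sequence, 183 bases before the start site when the 63 unprinted bases are counted. Of the 39 genes, 34 had a window in the table, and some had several, giving 41. The antioxidant element occurred in 24.4% of these windows and in 10.9% of all windows. For the gamma-activated site the shares were 14.6% and 6.57%, for the interferon-stimulated element 7.32% and 3.02%, and for the RUNX motif 7.32% and 11%. A match says that these letters occur there and nothing of binding.

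Of the other assembly factors, only PSMD5 was called in the average effect. PSMD5, a chaperone that holds ATPase intermediates of the 19S base, read 2965.8 and 1382.9 in controls at 0 h, 2102.1 and 2139.7 at 24 h, 1709.6 and 1600.3 at 48 h, and 1855.8 and 1569.7 at 72 h. In induced cells it read 1973.6 and 1689 at 12 h, 1893.7 and 2220.5 at 24 h, 2604.6 and 2616.5 at 48 h, and 3351.2 and 4325.2 at 72 h. Induced and control arrays did not overlap at 48 and 72 h. PSMD5 rose 1.504-fold on average (log2 0.59, SE 0.16, adjusted p = 0.0139) and 2.23-fold at 72 h (log2 1.16, SE 0.28, adjusted p = 0.00719). The 72 h call was lost without replicate 2 of the controls (adjusted p = 0.0552) or of the induced cells (0.0724) at 72 h.

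PSMD9 and PSMD10 are further chaperones of the 19S base, and PSMF1 encodes PI31, which inhibits the core in vitro. Their probe sets passed no test in the average effect. The average log2 differences were 0.31 and 0.29 for the 2 probe sets of PSMD9, at least 0.51 and 0.57 for those of PSMF1, and 0.12 for PSMD10. Both PSMF1 probe sets were dim, with 3 values under the floor between them. They disagreed on the time of the difference, at 48 h by 1.13 on the log2 scale. PSMC3IP, the recombination factor, fell 1.46-fold on average (log2 -0.54, SE 0.18, adjusted p = 0.0303). It read 907.6 and 935.9 in controls at 24 h, 837 and 843.4 at 48 h, and 557 and 709.2 at 72 h. Induced cells gave 817.4 and 640.4, 631.7 and 573.6, and 328.6 and 397.5 at these times, below the controls at each. At 0 h controls read 687.6 and 685.9, and at 12 h induced cells 652.5 and 589.3. The call was lost, at an adjusted p of 0.0615 to 0.0913, without either control at 48 h, replicate 2 of the controls at 72 h, replicate 2 of the induced cells at 24 or 48 h, or replicate 1 at 72 h.

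In the 20S core, PSMA3 fell and PSMB5 rose. PSMA3 (1448_at), an alpha subunit, read 4683.4 and 4083.2 in controls at 0 h, 5679.8 and 4332.3 at 24 h, 5787.8 and 5237.7 at 48 h, and 4045.6 and 4102.8 at 72 h. In induced cells it read 5467.6 and 4645.7 at 12 h, 6369.7 and 6990.6 at 24 h, 3047.5 and 3012.5 at 48 h, and 2377.7 and 2111.8 at 72 h. The induced arrays lay above the controls at 24 h and below them at 48 and 72 h. PSMA3 fell 1.82-fold at 48 h (log2 -0.86, SE 0.16, adjusted p = 0.00252) and 1.82-fold at 72 h (log2 -0.86, SE 0.16, adjusted p = 0.00128). The effects differed between times (F test, adjusted p = 0.00322). In the average, where the 24 h difference of 0.43 counts against the later ones, PSMA3 was lower by 1.35-fold (adjusted p = 0.00313).

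The other alpha subunits passed no test in these comparisons. PSMA1 came nearest in the F test, at an adjusted p of 0.116, with log2 differences of 0.29 at 24 h, -0.29 at 48 h and -0.33 at 72 h. It read 4492.6 and 4721.9 in controls at 0 h, 4801.6 and 4892.4 at 24 h, 4943.9 and 5437.3 at 48 h, and 4247.2 and 4879.5 at 72 h. Induced cells gave 5342 and 4255.4 at 12 h, 6021.1 and 5812.8 at 24 h, 4029.7 and 4455.3 at 48 h, and 3745 and 3523.2 at 72 h. As with PSMA3, its induced arrays were above the controls at 24 h and below them later. At 72 h the 8 alpha probe sets, of 6 genes, had log2 differences from -1.64, for PSMA7 with 1 induced array at the floor, to -0.10. All were below 0, but only 1, PSMA3, was called. Over all tested probe sets 4534 of 7824 were above 0. The median was -0.349 for the alpha probe sets and 0.178 over all tested probe sets.

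PSMB5 (37666_at) carries the chymotrypsin-like activity of the constitutive core. Controls read 3882.5 and 3387 at 0 h, 4492.4 and 4433.9 at 24 h, 4012.6 and 4261.9 at 48 h, and 3924.9 and 3734.3 at 72 h. Induced cells read 4968 and 4707.1 at 12 h, 5394.2 and 5344.2 at 24 h, 4777.9 and 5141.5 at 48 h, and 5510.6 and 5378.6 at 72 h. Every induced array lay above every control array. PSMB5 rose 1.27-fold on average (log2 0.35, SE 0.08, adjusted p = 0.00313) and 1.42-fold at 72 h (log2 0.51, SE 0.13, adjusted p = 0.00946). The 72 h call was lost with median centring (adjusted p = 0.161) and without replicate 2 of the controls at 72 h (0.0539). The other catalytic subunits passed no test in the average effect, with log2 differences of 0.26 for PSMB6 and of -0.21 and -0.16 for the 2 probe sets of PSMB7.

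In the 19S cap, PSMD14 fell and PSMC6 rose. PSMD14 (33247_at) is the metalloprotease that removes ubiquitin chains from substrates as they enter. Controls read 3320.1 and 2673.2 at 0 h, 3430.1 and 2911.6 at 24 h, 3225.5 and 2989.3 at 48 h, and 2828.1 and 2860.2 at 72 h. Induced cells read 2992.2 and 2461.5 at 12 h, 3558.8 and 3809.5 at 24 h, 2076.9 and 2638.4 at 48 h, and 1586 and 1415.6 at 72 h. The order was the same as for PSMA3, with induced cells above controls at 24 h and below them at 48 and 72 h. PSMD14 fell 1.90-fold at 72 h (log2 -0.92, SE 0.19, adjusted p = 0.00195) and 1.29-fold on average (log2 -0.37, SE 0.11, adjusted p = 0.0173). Its F test gave an adjusted p of 0.0314, and this call was lost without 8 single arrays (highest adjusted p 0.127, without replicate 2 of the induced cells at 24 h) and without the mean-variance trend (0.0707). The average call was lost without replicate 1 of the induced cells at 48 h (0.0516).

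PSMC6 (949_s_at) is an ATPase of the 19S ring. It read 893.3 and 792.2 in controls at 0 h, 743.7 and 785 at 24 h, 846 and 704.4 at 48 h, and 562.5 and 958.5 at 72 h. Induced cells gave 839.8 and 794.1 at 12 h, 1203.7 and 1225.9 at 24 h, 1029.6 and 1189.2 at 48 h, and 1100 and 1001.3 at 72 h. From 24 h on, every induced array was above every control. The average rise was 1.48-fold (log2 0.57, SE 0.17, adjusted p = 0.0202). It was lost, at an adjusted p of 0.05002 to 0.0609, without replicate 2 of the controls at 48 h, replicate 1 of the controls at 72 h, or replicate 2 of the induced cells at 24 or 48 h.

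The remaining subunits of the core and the cap passed no test in the average effect. Among alpha subunits the average log2 difference was -0.29 for PSMA5, -0.25 and -0.02 for the 2 probe sets of PSMA2, and -0.13 and 0.00 for those of PSMA4. Among beta subunits, which form the inner rings, it was -0.13 for PSMB1, -0.19 for PSMB2, -0.37 for PSMB3, and 0.11 and 0.19 for the probe sets of PSMB4. The ATPases PSMC1, PSMC2, PSMC3 and PSMC4 had values of 0.05, 0.14, 0.09 and -0.23. Of the lid and base subunits, PSMD12 had 0.31, the ubiquitin receptor PSMD4 0.25, PSMD2 0.22, PSMD6 0.16, PSMD1 0.03, PSMD11 -0.12 and PSMD3 -0.12. The 2 probe sets of PSMD8 had -0.08 and -0.24, and the dimmer one (32584_at) read -2.9 in replicate 2 of the induced cells at 72 h against 603.5 in replicate 1.

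Among activators other than PA28, PSME4 rose. PSME4 (36978_at) encodes PA200, a nuclear cap of the core. Controls read 2387.4 and 2411.8 at 0 h, 1780.2 and 2361.2 at 24 h, 2181.6 and 1751.1 at 48 h, and 1629 and 2173.3 at 72 h. Induced cells read 1985.4 and 1856 at 12 h, 2174 and 2417.9 at 24 h, 3243.9 and 2854.7 at 48 h, and 3377.3 and 3154.2 at 72 h. The 4 late induced arrays lay above all others. PSME4 rose 1.45-fold on average (log2 0.53, SE 0.12, adjusted p = 0.00336), 1.56-fold at 48 h (adjusted p = 0.0430) and 1.73-fold at 72 h (adjusted p = 0.00928). The 48 h call was lost without any of 10 single arrays (adjusted p 0.0509 to 0.267), with no filter on low values (0.0515), with median centring (0.0703) and without the mean-variance trend (0.0694). The 72 h call was lost without replicate 1 of the controls (0.109) or of the induced cells (0.0529) at 72 h. PSME3, which encodes the PA28 gamma cap of the nucleus, had an average log2 difference of -0.28 and passed no test.

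**Figure D3:**
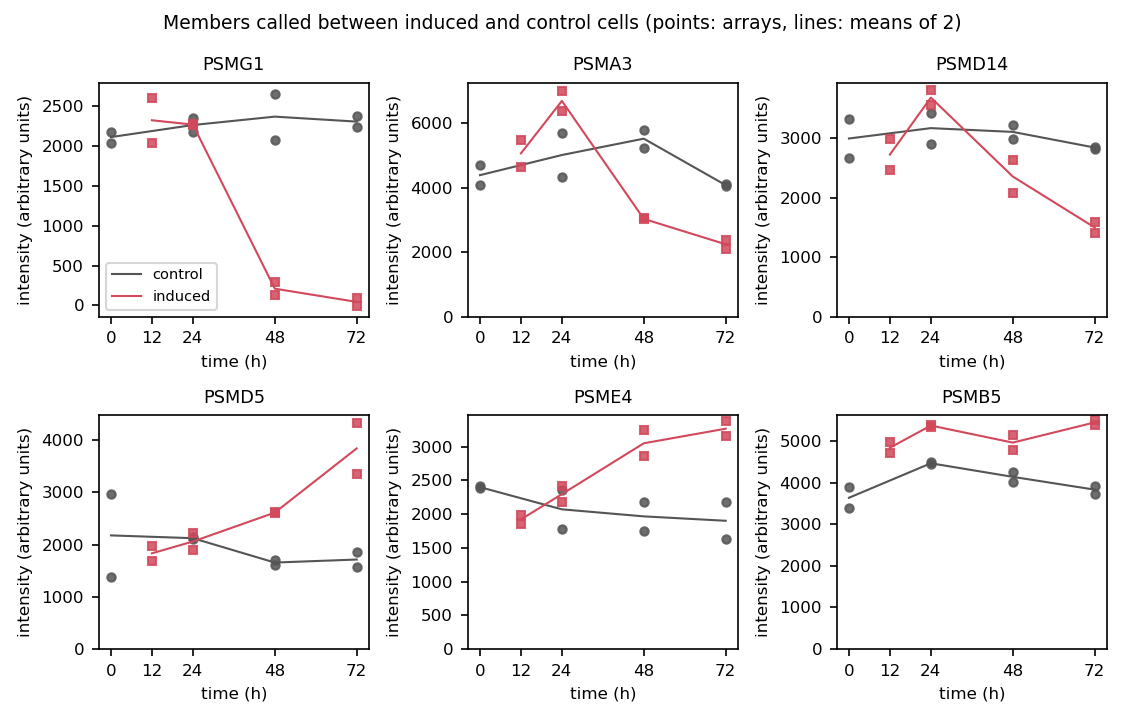
Intensity in arbitrary units against time for 6 members called between induced and control cells. Points are single arrays and lines join the means of 2. PSMG1, PSMA3 and PSMD14 are below the controls at 48 and 72 h, while PSMD5, PSME4 and PSMB5 are above them.

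Of the interferon-inducible subunits, PSMB10 fell and the other 3 passed no test. The promoters of PSMB10 and PSMB9 are printed to set the subunit that fell beside one that was not called. They lie at chr16:67936851-67937100 on the minus strand and chr6:32853942-32854191 on the plus strand (RefSeq, GRCh38.p14), with motif matches in capitals.
PSMB10: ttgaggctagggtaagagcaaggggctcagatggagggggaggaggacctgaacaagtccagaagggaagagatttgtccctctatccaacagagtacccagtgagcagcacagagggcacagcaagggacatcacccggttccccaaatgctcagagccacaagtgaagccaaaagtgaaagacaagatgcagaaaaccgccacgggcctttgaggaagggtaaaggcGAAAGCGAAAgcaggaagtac
PSMB9: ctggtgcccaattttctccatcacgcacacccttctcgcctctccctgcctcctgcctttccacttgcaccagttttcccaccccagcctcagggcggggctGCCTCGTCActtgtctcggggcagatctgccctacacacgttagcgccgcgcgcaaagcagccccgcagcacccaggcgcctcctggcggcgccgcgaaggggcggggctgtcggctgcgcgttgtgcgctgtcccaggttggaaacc
The capitals in PSMB10 match the interferon-stimulated element and begin 21 bases before the start site. Those in PSMB9 match the antioxidant element on the other strand and begin 148 bases before it. The interferon-stimulated element also occurred for PSMA4 and PSMB4, which were not called. Windows of the uncalled PSMB8 and PSME1, not printed, held a gamma-activated site and an antioxidant element. A link of these motifs to the fall of PSMB10 was not tested.

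PSMB10 (384_at) carries the trypsin-like site of the immunoproteasome. Controls read 2290.6 and 2462.1 at 0 h, 3085.4 and 3117.7 at 24 h, 2426.7 and 2395.3 at 48 h, and 2142.9 and 2587.6 at 72 h. Induced cells read 3387.6 and 2054.2 at 12 h, 2854.9 and 2544.3 at 24 h, 1637.3 and 1717.5 at 48 h, and 1614.1 and 1553.2 at 72 h. At each of the 3 shared times both induced arrays were below both controls. The average fall was 1.35-fold (log2 -0.43, SE 0.12, adjusted p = 0.0163), and no single time passed the test (adjusted p = 0.113 at 48 h and 0.0601 at 72 h).

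PSMB8 (41184_s_at), the counterpart of PSMB5, read 1683.6 and 1476.8 in controls at 0 h, 1561.6 and 805 at 24 h, 1844.7 and 1495.9 at 48 h, and 1082.5 and 1436.9 at 72 h. Induced cells gave 1275.2 and 1046.2 at 12 h, 1266 and 1540 at 24 h, 1139.5 and 1264.9 at 48 h, and 1078.7 and 767.3 at 72 h. The induced arrays were below the controls at 48 and 72 h and overlapped them at 24 h. The average log2 difference was -0.20, with a 95% interval from -0.60 to 0.19 (adjusted p = 0.438).

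PSMB9 (38287_at), the counterpart of PSMB6, read 1080.3 and 1878.7 in controls at 0 h, 1115.4 and 1004.9 at 24 h, 1532.9 and 1169.5 at 48 h, and 1692 and 1866.2 at 72 h. Induced cells gave 1000 and 699.6 at 12 h, 1068.7 and 994.6 at 24 h, 1565.2 and 1424.5 at 48 h, and 1751.4 and 1242 at 72 h. Induced and control arrays overlapped at all 3 shared times. The average log2 difference was -0.05, with an interval from -0.43 to 0.33 (adjusted p = 0.855), and its sign turned without 1 of 2 single arrays.

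PSME1 (36600_at), a subunit of PA28, read 1907.6 and 2351.4 in controls at 0 h, 1808.8 and 1557.6 at 24 h, 2719.7 and 3080.5 at 48 h, and 3289.7 and 3763.2 at 72 h. Induced cells gave 2500 and 2007.9 at 12 h, 2686.9 and 1683.5 at 24 h, 4073.1 and 4154 at 48 h, and 5411.6 and 2860 at 72 h. Levels were high at 48 and 72 h in both kinds of cell. The average log2 difference was 0.34, with an interval from -0.02 to 0.69 (adjusted p = 0.138). Without replicate 2 of the induced cells at 72 h it was 0.49 and passed (adjusted p = 0.0217). The difference of controls at 72 h from 0 h was 0.73 (adjusted p = 0.594).

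**Figure D4:**
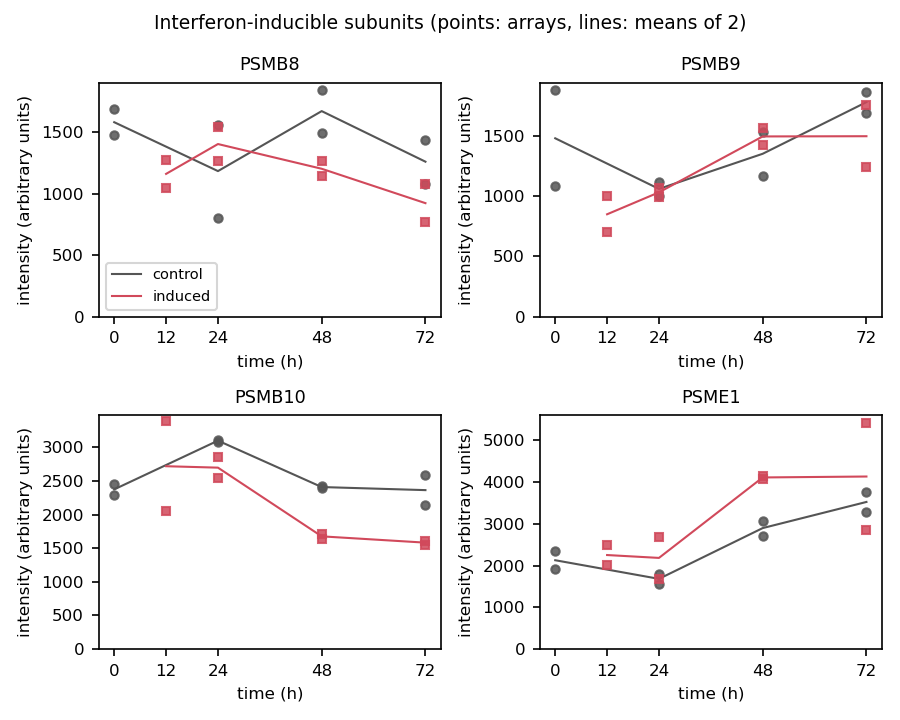
Intensity in arbitrary units against time for the 4 interferon-inducible subunits. Points are single arrays and lines join the means of 2. PSMB10 separates at 48 and 72 h, where induced arrays read 1553.2 to 1717.5 and controls 2142.9 to 2587.6.

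Transcripts of the catalytic subunits were compared by the log2 ratio of each inducible subunit to its constitutive counterpart on the same array. The ratio was taken as a difference between induced and control cells and not tested. It describes RNA only, and the exchange of the proteins in the core was not measured. For PSMB8 to PSMB5 the difference was 0.05 at 24 h, -0.73 at 48 h and -0.96 at 72 h, without overlap at the later times. For PSMB9 to PSMB6 it was -0.29, 0.03 and -0.65. For PSMB10 to PSMB7 it was -0.11, -0.13 and -0.44 with 1 probe set of PSMB7 (1313_at) and -0.43, -0.15 and -0.25 with the other (39060_at). At 72 h the mean ratio was thus lower in induced cells for each of the 3 pairs, and with the second PSMB7 probe set the arrays overlapped.

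Of 42 tested probe sets (31 genes) for interferon factors and targets, 24 rose and 4 fell in the average effect, or 66.7% against 31.9% of all tested probe sets. Their median log2 difference was 0.741, beside 0.102 over all tested probe sets and -0.126 for the 4 subunits, a difference that was not tested. IFI16, a nuclear DNA sensor, rose 4.93-fold (adjusted p = 7.51e-06). OASL, an antiviral protein related to oligoadenylate synthetases, rose by at least 2.08 on the log2 scale in 1 probe set (34491_at, adjusted p = 4.54e-05), and by a fitted 1.32 in the other (269_at, adjusted p = 0.00164). IRF9, a subunit of the ISGF3 factor, the ubiquitin-like ISG15 (38432_at) and IFI6 also rose, at fitted log2 values of 3.11, 2.09 and 2.01 that are no bounds, since an induced array lay at the floor. The other ISG15 probe set (1107_s_at) rose 2.59-fold. IRF8, a factor of the monocyte lineage that binds interferon response elements, fell, with a log2 difference of -3.70 or lower in the average of the 3 times (adjusted p = 1.80e-07), with arithmetic means of 1466.6 in induced and 7080.4 in control cells.

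Peptide loading on MHC class I, the step after peptides are cut, gave 5 higher and 2 lower of 18 probe sets (13 genes), or 38.9% against 31.9% of all tested probe sets, a share near the background. HLA-F rose 2.38-fold by its dimmer probe set (37420_i_at), TAP1, a subunit of the peptide transporter, 1.87-fold, and tapasin (TAPBP) 1.71-fold, with adjusted p-values of at most 0.00403 in limma. The brighter HLA-F probe set (37421_f_at) had a log2 difference of 0.15 and was not called (adjusted p = 0.501). HLA-E rose 1.504-fold and HLA-G 1.33-fold by 1 probe set (40370_f_at), while the other HLA-G probe set (40369_f_at) had 0.20 and was not called (adjusted p = 0.282). The rise of HLA-E is against controls of the same times. Against controls at 0 h, with a mean of 2321.9, limma called HLA-E lower in controls at 24 h (log2 -1.58, adjusted p = 0.0382). It was also lower in induced cells at 12 h (log2 -1.63, adjusted p = 0.0113). Class I genes are alike in sequence and their probe sets may share signal. B2M, the light chain of class I molecules, fell 1.67-fold by 1 of its 3 probe sets (201_s_at, adjusted p = 0.00423). The others were brighter and not called, with log2 differences of -0.16 (428_s_at, adjusted p = 0.380) and 0.12 (34644_at, adjusted p = 0.456). The annotated spans of TAP1 and PSMB9 lie 488 bases apart on chromosome 6. TAP1 read 641.6 and 812.2 in controls at 48 h and 411.4 and 613.8 at 72 h, against 1418.1 and 1321.6, and 2675 and 1929.1, in induced cells. At 72 h it rose 4.52-fold (adjusted p = 0.000432), where PSMB9 had a log2 difference of -0.27. The difference between the average effects of TAP1 and PSMB9 was 0.956 on the log2 scale. In an exact two-sided permutation test over the 216 relabelings within times it gave p = 0.102, above the smallest possible value of 0.00926. This pair was chosen after its values were seen.

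Some subunits of the 19S cap were high at 12 to 24 h in induced and control cells alike. Against controls at 0 h, induced cells at 12 h had 3 of the 46 probe sets higher and none lower, 6.52% against 3.28% of all tested probe sets (1.16% higher and 2.12% lower). The 3 were PSMC4, PSMD11 and PSMD1. Controls at 24 h had PSMD11 and PSMD1 higher and none lower, 4.35% against 0.498% of all tested probe sets (0.166% higher and 0.332% lower). Both comparisons use the same 2 arrays at 0 h. Against these arrays, controls at 48 and 72 h had none of the 46 called by limma. An unadjusted p under 0.05 was found for 4 and 1 of the 46, and for 700 and 581 of all 7824. Of all tested probe sets, 0.0128% were called higher and 0.00% lower at 48 h, and 0.0128% higher and 0.0256% lower at 72 h.

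The promoters of PSMD11, PSMD1 and PSMC4 are printed because these 3 subunits rose together at 12 h. They lie at chr17:32444260-32444509, chr2:231056617-231056866 and chr19:39970915-39971164, all on the plus strand (RefSeq, GRCh38.p14). Other genes, LOC112268432 and LOC124904720, are annotated over the windows of PSMD1 and PSMC4.
PSMD11: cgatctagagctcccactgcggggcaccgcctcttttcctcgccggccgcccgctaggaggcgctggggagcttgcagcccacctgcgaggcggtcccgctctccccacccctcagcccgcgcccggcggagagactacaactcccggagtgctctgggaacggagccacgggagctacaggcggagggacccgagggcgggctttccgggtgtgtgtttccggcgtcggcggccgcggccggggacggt
PSMD1: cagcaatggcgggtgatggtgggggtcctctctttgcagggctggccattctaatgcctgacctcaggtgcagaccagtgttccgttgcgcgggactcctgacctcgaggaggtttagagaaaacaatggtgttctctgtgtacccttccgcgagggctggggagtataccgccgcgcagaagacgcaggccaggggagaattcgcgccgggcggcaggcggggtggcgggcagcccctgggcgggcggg
PSMC4: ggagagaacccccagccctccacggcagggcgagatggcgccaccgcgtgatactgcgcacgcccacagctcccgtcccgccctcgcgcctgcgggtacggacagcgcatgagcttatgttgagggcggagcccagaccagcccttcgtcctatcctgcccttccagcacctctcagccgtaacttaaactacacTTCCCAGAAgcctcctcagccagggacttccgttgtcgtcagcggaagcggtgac
Of the 4 motifs, the gamma-activated site was matched in PSMC4, in capitals, beginning 55 bases before the start site. PSMD11 and PSMD1 held none of them.

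PSMD11 (1191_s_at), a scaffold subunit of the 19S lid, read 2861.9 and 3364.2 in controls at 0 h, 5762.4 and 6199.4 at 24 h, 4938.7 and 4802.7 at 48 h, and 3321 and 3454.6 at 72 h. In induced cells it read 7025.3 and 7339.7 at 12 h, 6511.6 and 7084 at 24 h, 3427.7 and 3127.5 at 48 h, and 3394.4 and 3540 at 72 h. The level was high at 24 h in both kinds of cell, and by 48 h the induced arrays were near the 0 h level while controls were still above it. PSMD11 rose 2.31-fold at 12 h (log2 1.21, SE 0.14, adjusted p = 0.00104) and 1.93-fold in controls at 24 h (log2 0.95, SE 0.14, adjusted p = 0.00838). Between induced and control cells at 48 h it fell 1.49-fold (log2 -0.57, SE 0.14, adjusted p = 0.00987), and its effects differed between times (F test, adjusted p = 0.0406). The rise in controls was lost without replicate 1 at 0 h (adjusted p = 0.0622) and without the mean-variance trend (0.0651). The fall at 48 h was lost without either control (0.0728 and 0.0536) or replicate 2 of the induced cells (0.0738) at 48 h, and the F test call without any of 11 single arrays (highest 0.136) or without the trend (0.132).

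PSMD1 (1314_at), the largest scaffold of the 19S base, read 4893.6 and 4111.4 in controls at 0 h, 7865.8 and 7748.7 at 24 h, 6212.5 and 6393.4 at 48 h, and 4207.6 and 4512.3 at 72 h. Induced cells gave 7500.4 and 8672.2 at 12 h, 7762 and 9160.6 at 24 h, 5509.8 and 5768.8 at 48 h, and 4749.4 and 4874.2 at 72 h. It rose 1.80-fold at 12 h (log2 0.85, SE 0.14, adjusted p = 0.00769) and 1.74-fold in controls at 24 h (log2 0.80, SE 0.14, adjusted p = 0.0291). The 12 h call was lost without replicate 2 of the controls at 0 h (adjusted p = 0.0642). The call in controls was lost without that array (0.130) and without replicate 1 (0.176) or 2 (0.05001) of the controls at 24 h, as it was without the mean-variance trend (0.101).

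PSMC4 (32848_at), an ATPase of the base, read 925.2 and 647.1 in controls at 0 h, 2676.4 and 1583.7 at 24 h, 1421.6 and 1222.4 at 48 h, and 1039.1 and 1223.4 at 72 h. Induced cells gave 2661.9 and 1541.4 at 12 h, 1693.7 and 1881.1 at 24 h, 914 and 934.4 at 48 h, and 1160.6 and 1130 at 72 h. It rose 2.62-fold at 12 h (log2 1.39, SE 0.31, adjusted p = 0.0328), and the controls at 24 h had a log2 difference of 1.41 that did not pass (adjusted p = 0.0667). The 12 h call was lost without replicate 1 (0.0522) or 2 (0.163) of the controls at 0 h or without replicate 1 of the induced cells (0.181), and also with no filter on low values (0.0672) or no mean-variance trend (0.0523).

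Other members had like values without passing. The log2 difference from 0 h at 12 h and in controls at 24 h was 0.72 and 0.65 for the ATPase PSMC3, 0.33 and 0.79 for the scaffold PSMD2, and 0.81 and 1.11 for PSME3. Some members went the other way, also without passing. The same differences were -0.85 and -0.33 for PSMD10 and -0.77 and -0.43 for PSMB9. PSMF1 had -1.18 or lower and -0.90 or lower by 951_at, and -0.165 and -0.458 by 36974_at. Among all 46, 30 had a difference above 0 at 12 h and 34 in controls at 24 h, beside 2913 and 3381 of all 7824. The medians were 0.163 and 0.148 among the 46, beside -0.153 and -0.053 over all tested probe sets. With each array centred on its median, which moved the median over all probe sets at 12 h to 0.098, 7 were higher at 12 h. ADRM1, a ubiquitin receptor of the 19S cap that is not named PSM, read 2668.8 and 2565.4 at 0 h, 7432.3 and 7384.5 in induced cells at 12 h, and 4929.8 and 5388.3 in controls at 24 h. It rose 2.83-fold (adjusted p = 0.00186) and 1.97-fold (adjusted p = 0.0404) by limma. It was singled out from the list of partners after its values were seen.

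**Figure D5:**
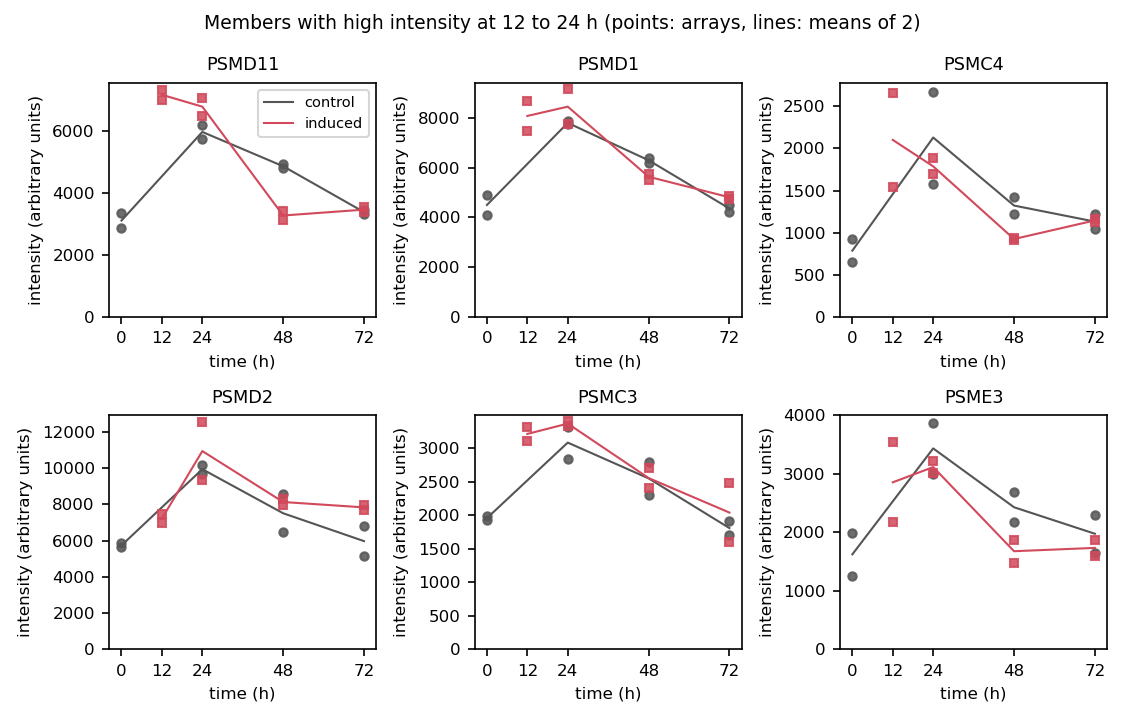
Intensity in arbitrary units against time for 6 members with high intensity at 12 to 24 h. Points are single arrays and lines join the means of 2. PSMD11 reads 2861.9 and 3364.2 at 0 h and between 5762.4 and 7339.7 on the arrays at 12 and 24 h.

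Among partners of the proteasome in the ubiquitin pathway, 13 of 51 probe sets (39 genes) rose and 2 fell in the average effect, or 29.4% against 31.9% of all tested probe sets. UBA3, a subunit of the enzyme that activates NEDD8, rose 3.06-fold (adjusted p = 0.000857), and the ubiquitin-conjugating enzyme UBE2A rose 2.03-fold (adjusted p = 4.69e-06). UBE2H, another such enzyme, had a fitted log2 rise of 1.48 that is no bound. The ligase UBE4A rose 1.54-fold, and the conjugating enzyme UBE2G2 fell 1.54-fold. NFE2L1, a transcription factor that drives proteasome genes when the proteasome is impaired, read 1457.8 and 806.8 in controls at 48 h and 1251.9 and 1337.3 at 72 h, against 3205.4 and 2297.2, and 4408.9 and 3868.7, in induced cells. It rose 1.93-fold on average (adjusted p = 0.0104) and 3.19-fold at 72 h (adjusted p = 0.0101). The median log2 difference at 72 h was -0.099 among the 46 proteasome probe sets, with 20 above 0, and 0.178 among all 7824, with 4534 above 0.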

How the data were processed

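The values the authors deposited are intensity readings on a linear scale for each probe set of 16 Affymetrix U95Av2 arrays. The labels give every array a scale factor, and the mean over all values of the 16 arrays was 1370.9. How probes were summarised is not stated in the sources used here. Below 0 lay 25.8% of the values. Values under the 40th percentile (135.61) were raised to it before taking log2. Tests covered probe sets with 2 or more arrays above the overall median (292.74), without the 67 controls. Of all probe sets, 10961 had 1 symbol in the platform annotation, which can be old, 546 had several and 1119 none.

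Group means were fitted to 7824 probe sets with limma 3.58.1 in R 4.3.3 (lmFit, eBayes with a mean-variance trend), which left 8 residual degrees of freedom and a median of 5.19 prior ones. P-values were two-sided and adjusted over all 7824 (Benjamini-Hochberg), and called under 0.05. The number of arrays limits the precision. The floor, filter, normalization, trend, replicate block and single arrays were varied. The fit was tested on simulated data. Promoters came from RefSeq (GRCh38.p14).

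The members and gene lists were chosen with earlier results of these data known. Every member could be named. Values on all arrays were given for the interferon-inducible subunits, for called members (up to 10 rises and 10 falls on average, up to 4 each in other comparisons) and for the 6 smallest p-values of the F test. Up to 6 called genes were named from each other list.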

Additional observations from a re-analysis of the deposited data

Results flagged for a closer look

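The difference between induced and control cells was not the same at 24, 48 and 72 h for 4 proteasome probe sets (F test of limma, adjusted over all tested probe sets). For the assembly chaperone PSMG1 the adjusted p was 0.000186. Its log2 differences were 0.0045 at 24 h, -3.57 or lower at 48 h and -4.09 or lower at 72 h. Its induced values lay above the floor at 24 h, partly at it at 48 h and wholly at it at 72 h. For the alpha subunit PSMA3 the adjusted p was 0.00322, with log2 differences of 0.43, -0.86 and -0.86. For the deubiquitinase PSMD14 it was 0.0314, with 0.22, -0.41 and -0.92. For the lid subunit PSMD11 it was 0.0406, with 0.18, -0.57 and 0.03.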

How the results depend on the processing

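The 9 counts of calls and 31 effects of named members were recomputed under 9 alternatives and without each of the 16 arrays. PSMG1, PSMA3 and PSMB10 kept each of their calls throughout, as did PSMD11 at 12 h, PSMD14 at 72 h and PSME4 in the average. Calls of other effects were lost 69 times, counting each effect in each setting. The average of PSMB9 lay between -0.1325 and 0.0327 without single arrays and turned sign, to 0.0152 without replicate 1 of the controls at 48 h and 0.0327 without replicate 2 of the induced cells at 72 h. Of the 4 F test calls 2 were left without the mean-variance trend, and of the 2 calls in controls at 24 h 0. With quantile normalization 5 were called at 12 h and 10 at 72 h, and with median centring 7 at 12 h. With no filter on low values 1 was called in controls at 48 h. Leaving out single arrays gave 7 to 13 calls on average, 2 to 5 at 48 h, 5 to 8 at 72 h, 1 to 4 at 12 h, 1 to 3 in controls at 24 h and 2 to 5 in the F test, and 0 at 24 h and in controls at 48 and 72 h. At 48 h 2 were left without either control or replicate 2 of the induced cells, and at 12 h 1 without replicate 2 of the controls at 0 h. The cause of these shifts was not tested. Replicate numbers were not found to pair the samples, since the replicate differences of induced and control cells correlated at 0.118, 0.007 and -0.119 at 24, 48 and 72 h and at 0.035 between 12 h and 0 h. With the replicate block, 10 probe sets were called on average, 4 at 12 h, 4 at 48 h, 6 at 72 h, 2 in controls at 24 h and 4 in the F test.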

Other observations

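The genes next to PSMG1 on chromosome 21 were looked up after its values were seen. BRWD1 encodes a chromatin reader. Its annotated span lies 662 bases from that of PSMG1, on the side of the PSMG1 promoter. BRWD1 was dim and its early replicates were uneven. Controls read 4.6 and 339.7 at 0 h and 143.8 and 274.6 at 24 h. Induced cells read 78.8 and 183.2 at 12 h and 113.6 and 153.9 at 24 h. Later BRWD1 read 75.6 and 197.6 in controls at 48 h and 74.2 and 51.4 at 72 h. In induced cells it read 306.8 and 297 at 48 h, and 342.3 and 365.6 at 72 h, a range that also holds replicate 2 of the controls at 0 h. Both controls at 72 h lay under the floor, and BRWD1 rose there by at least 1.38 on the log2 scale (adjusted p = 0.0405, limma). Its fitted average of 0.60 (adjusted p = 0.110) is no bound, since arrays of both kinds lay at the floor. HMGN1, a nucleosome-binding protein, fell by 0.53 on the log2 scale at 72 h (adjusted p = 0.0174). GET1, which acts in the insertion of tail-anchored proteins, had an average log2 difference of -0.06 (adjusted p = 0.868). PSMG1 itself had a log2 difference of -4.09 or lower at 72 h, with both induced arrays under the floor.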
